A study of Mus musculus with 2 samples.

Results

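Glutathione transferases, the enzymes of glutathione supply and peroxide removal, and the target genes of the transcription factor NRF2 were followed in mouse liver lacking Lpcat3. The list holds 36 genes, set by name and function, with earlier results of these data known. It has 19 glutathione transferases and 17 others, among them Nfe2l2, which encodes NRF2, and its inhibitor Keap1. Of the 18193 genes that at least 1 probe set of the array reads alone, 33 were on the list, and 32 of these gave a signal above the floor used here. The 4 without a value were Slc7a11, Gsta1, Prdx1 and Prdx6. Probe sets of Slc7a11 lay below that floor, and Gsta1 and Prdx1 are read only by probe sets that also list other genes. For Prdx6, no probe set was found under that symbol, so it was not analysed here.

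RNA came from the livers of male mice aged 12 weeks on a chow diet after a 6 hr fast. The L-Lpcat3 KO mice were Lpcat3 fl/fl with Albumin-Cre, and the Flox/Flox mice were Lpcat3 fl/fl without Cre, so both genotypes carry the floxed alleles and only the L-Lpcat3 KO mice carry the recombinase. The conditional allele was built in embryonic stem cells of C57BL/6N origin. The albumin promoter drives Cre in hepatocytes, and the other cells of the liver keep Lpcat3, whose product is a phospholipid acyltransferase that places polyunsaturated chains into membrane phospholipids. RNA of 5 mice was pooled for each genotype and hybridised to 1 Affymetrix mouse expression array, so there are 2 arrays, no replicate check and no test, and the spread between mice is unknown.

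Glutathione transferases join the tripeptide glutathione to reactive chemicals and to breakdown products of oxidised lipids, and they make up a large share of the soluble protein of a hepatocyte. NRF2 is held back and sent for degradation by KEAP1. When KEAP1 is modified by electrophiles or oxidants, NRF2 gathers in the nucleus, pairs with a small Maf protein and binds antioxidant response elements near genes for glutathione synthesis, conjugation, quinone reduction and the thioredoxin system.

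The targeted gene was lower in the knockout pool. Lpcat3 had a signal of 1305.5 in L-Lpcat3 KO liver, against 3310.0 in Flox/Flox liver, which is a log2 ratio of -1.34, or 2.54-fold lower. Where this probe set lies relative to the deleted exon was not determined, and in bulk tissue fewer cells of a type and less RNA per cell cannot be told apart. The 11 measured hepatocyte markers of 12 had log2 ratios (L-Lpcat3 KO over Flox/Flox, as in all ratios given) of -0.16 to 0.32, with summed signals of 401562.9 in L-Lpcat3 KO liver and 410989.2 in Flox/Flox liver. Apoa1, the main HDL protein, had 52986.5 in L-Lpcat3 KO liver and 54826.7 in Flox/Flox liver, and Serpina1b, an alpha-1-antitrypsin, had 47701.6 in L-Lpcat3 KO liver and 48239.2 in Flox/Flox liver.

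The list as a whole stayed close to equal signal in the 2 pools, and 2 of its genes were apart from the rest. Nqo1 and Gstt3 were at least 1.5-fold higher in L-Lpcat3 KO liver, no member was at least 1.5-fold lower, and none reached 2-fold in either direction. Thus 6.25% of the 32 measured members were at least 1.5-fold higher, beside 4.04% of all 12084 measured genes, while 3.19% of all measured genes were at least 1.5-fold lower, 0.571% higher by 2-fold or more and 0.53% lower by as much. Both shares of higher genes are of similar size, so the count of 2 does not set the list apart. Log2 ratios of the members ran from -0.25 to 0.79 with a median of 0.040, against a median of 0.0030 over all measured genes. Of the members, 21 lay above 0 and 11 below, that is 65.6% above 0 beside 50.7% of all measured genes. Within 1.2-fold in either direction lay 29 of the 32 members, or 90.6%, beside 70.8% of all measured genes. Most members are bright, and bright genes on these arrays scattered less, as the plot of ratio against signal shows.

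**Figure D1:**
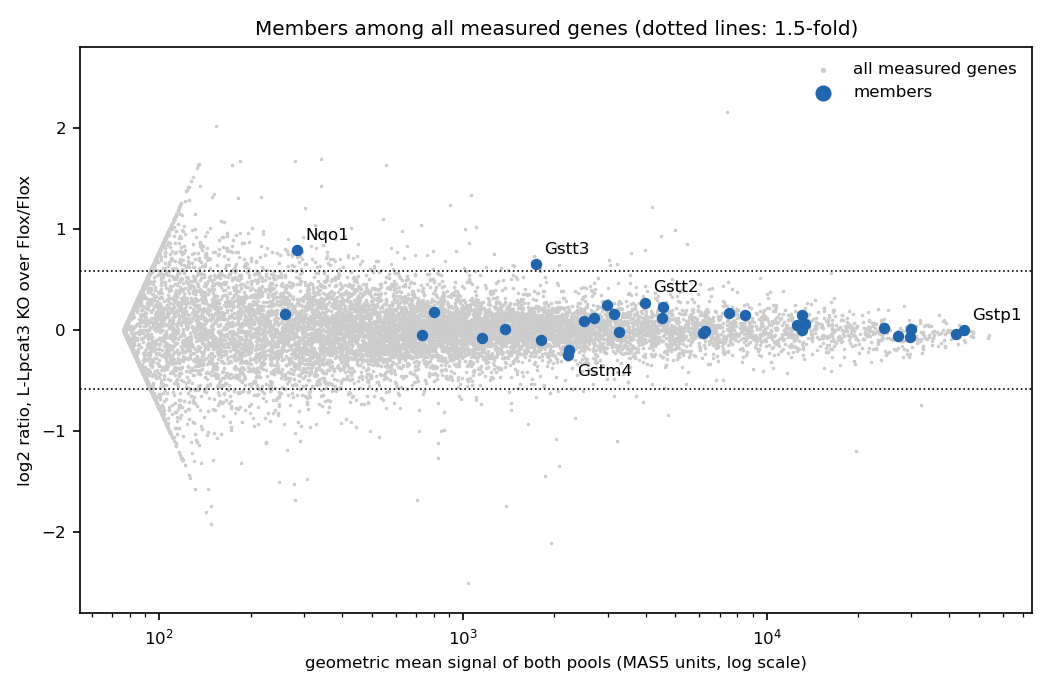
Each point is a gene, placed by its geometric mean of both signals (horizontal, MAS5 units, log scale) and its log2 ratio, L-Lpcat3 KO to Flox/Flox (vertical): all 12084 measured genes are grey and the 32 measured members blue, with dotted lines at 1.5-fold. Nqo1 and Gstt3 lie above the upper line, no member lies below the lower one, and the grey cloud narrows toward high signal.

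Of 18 measured transferases 13 had a ratio above 0, with a median log2 ratio of 0.12, while of the 14 other measured members 8 lay above 0, with a median of 0.0060. By class, every measured alpha, theta, zeta, omega and kappa member was above 0, whereas 4 of the 6 mu members were below 0, and the signs of the alpha, theta and mu medians were the same under the 3 other scalings tried. With 1 array per genotype, these differences between classes have no replicate error to be set against.

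**Figure D2:**
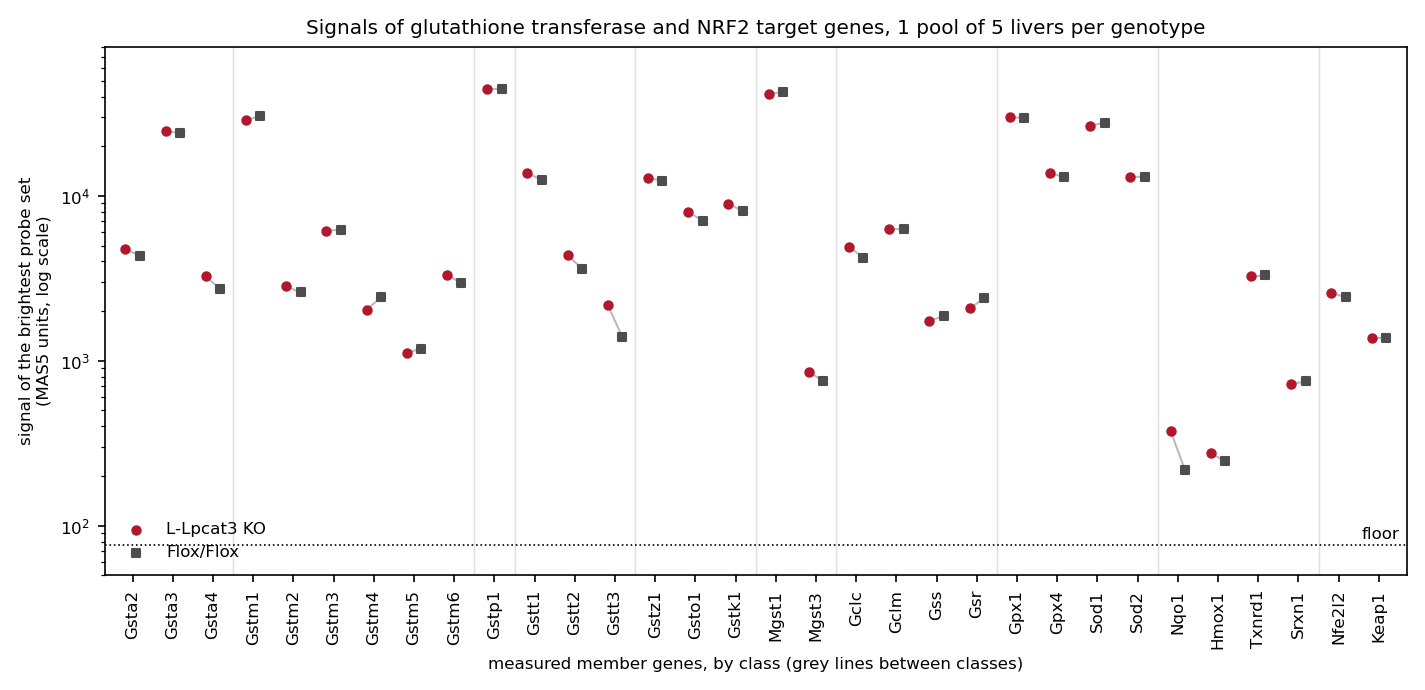
Signal (MAS5 units, log scale) of the brightest measured probe set of each of the 32 measured members, with L-Lpcat3 KO and Flox/Flox as separate points, 1 array of 5 pooled mice each. The points of most members nearly coincide, and the widest gaps are those of Nqo1 and Gstt3.

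The theta class held the largest ratios among the transferases. Theta transferases act on small halogenated and other electrophilic compounds. Gstt3 had a signal of 2182.5 in L-Lpcat3 KO liver and 1389.0 in Flox/Flox liver, a log2 ratio of 0.65 or 1.57-fold higher. Of the 500 measured genes with the closest signal, 0.4% had a higher ratio, and the central 90% of them ran from -0.27 to 0.27. Gstt3 is read by 1 probe set (1423891_at) of the kind designed to be unique to its gene, so no second probe set can be set beside it. Gstt2 went the same way with a smaller difference, at 4364.3 in L-Lpcat3 KO liver and 3615.9 in Flox/Flox liver, a log2 ratio of 0.27 or 1.21-fold. Its ratio lay just past the central 90% of its neighbours in signal, 4.6% of which were higher. Gstt1, the brightest of the class, had 13804.2 in L-Lpcat3 KO liver and 12409.3 in Flox/Flox liver, a log2 ratio of 0.15. All 3 theta members were thus above 0, with a class median of 0.27.

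The alpha class, which in mouse liver handles lipid aldehydes and aflatoxin epoxide, was above 0 by small amounts. Gsta3, its brightest member, had 24579.3 in L-Lpcat3 KO liver and 24140.0 in Flox/Flox liver, a log2 ratio of 0.026, and its other probe set gave 0.067. Gsta4, whose enzyme prefers the lipid peroxidation product hydroxynonenal, had 3243.8 in L-Lpcat3 KO liver and 2722.6 in Flox/Flox liver, or 1.19-fold. The log2 ratio of 0.25 was exceeded by 5.6% of the 500 genes nearest in signal. Gsta2 had 4731.6 in L-Lpcat3 KO liver and 4346.8 in Flox/Flox liver, a log2 ratio of 0.12. The class median was 0.12 over 3 measured of 4 listed genes, since Gsta1 has no probe set of its own. A probe set that lists Gsta1 and Gm3776 beside Gsta2 gave -0.045 and was left out of these values. Whether the probe sets that list 1 alpha gene also bind related transcripts was not checked.

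Mu transferases, the most numerous of the transferase classes listed, moved in both directions. Gstm1, the brightest, had 28926.3 in L-Lpcat3 KO liver and 30357.6 in Flox/Flox liver, a log2 ratio of -0.070. Its other 3 probe sets gave -0.028, -0.31 and -0.15, so all 4 lay below 0. Gstm4 was the lowest of the class and of all members, at 2039.5 in L-Lpcat3 KO liver and 2425.1 in Flox/Flox liver, with a log2 ratio of -0.25. Of the 500 genes nearest to Gstm4 in signal, 94.6% had a higher ratio, and the central 90% ran from -0.26 to 0.22, which includes it. Gstm3 and Gstm5 had ratios of -0.024 and -0.079, and Gstm2 and Gstm6 lay on the other side at 0.12 and 0.16. The range of the class was -0.25 to 0.16 and its median -0.047. The mu genes are close copies of each other in 1 gene cluster, and the brightest probe sets of Gstm1 and Gstm3 are of a kind that can bind related transcripts, so the share of each gene in these signals is uncertain.

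Gstp1, the pi transferase and a very abundant protein in male mouse liver, had 44549.6 in L-Lpcat3 KO liver and 44492.3 in Flox/Flox liver. The log2 ratio of 0.0019 was the one nearest to 0 on the list, and its sign turned under median centring. The related gene Gstp2 has no probe set that lists it alone, so its share in this signal is unknown. Zeta, omega and kappa members were all above 0. Gstz1, which isomerises maleylacetoacetate in tyrosine breakdown, was the brightest of them with 12838.5 in L-Lpcat3 KO liver and 12361.1 in Flox/Flox liver, a log2 ratio of 0.055. Gsto1, which reduces dehydroascorbate, had a ratio of 0.17 on its brightest probe set and 0.060 on the other, and Gstk1, found in mitochondria and peroxisomes, had 0.15. The membrane-bound transferases split. Mgst1, an abundant enzyme of the endoplasmic reticulum and outer mitochondrial membrane, had 41509.2 in L-Lpcat3 KO liver and 42637.5 in Flox/Flox liver, a log2 ratio of -0.039 that turned positive, to 0.044, after quantile normalization. A second Mgst1 probe set near the floor gave 0.19. Mgst3 had 855.7 in L-Lpcat3 KO liver and 753.1 in Flox/Flox liver, a log2 ratio of 0.18.

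The genes of glutathione synthesis and recycling did not move as a group. Of 4 measured members 1 lay above 0 and 3 below, with a median log2 ratio of -0.053. Gclc, the catalytic subunit of glutamate-cysteine ligase and the rate-limiting enzyme of glutathione synthesis, had 4928.0 in L-Lpcat3 KO liver and 4199.7 in Flox/Flox liver. Its log2 ratio of 0.23 was met by 0.21 on the second probe set, and 6.4% of the 500 nearest genes exceeded it. Gclm, the modifier subunit of the same enzyme and the brightest of the group, had 6264.6 in L-Lpcat3 KO liver and 6312.0 in Flox/Flox liver, a log2 ratio of -0.011. The subunits of the ligase therefore differed in ratio, with Gclm at nearly equal signal. Gss, glutathione synthetase, had a ratio of -0.095 and its other probe set -0.20. Gsr, glutathione reductase, had -0.20 on its brightest probe set and 0.19 on the other, so the probe sets of this gene differ in sign. Slc7a11, the cystine importer that feeds glutathione synthesis in many cells, gave signals of 7.98 and 1.98 in L-Lpcat3 KO liver, against 4.44 and 2.41 in Flox/Flox liver, all below the floor of 76.4, and has no ratio.

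On their brightest probe sets, the 4 measured of 6 listed peroxidases and superoxide dismutases were among the most even members. Prdx1 and Prdx6 have no value here. Gpx1, the main cytosolic glutathione peroxidase and the brightest of the group, had 30020.2 in L-Lpcat3 KO liver and 29696.4 in Flox/Flox liver, a log2 ratio of 0.016. Gpx4, which reduces phospholipid hydroperoxides within membranes, had 13670.1 in L-Lpcat3 KO liver and 13070.0 in Flox/Flox liver, a ratio of 0.065, with 0.082 on its other probe set. Both peroxidases were nearly equal in the 2 pools. Sod1, the cytosolic superoxide dismutase, had 26605.9 in L-Lpcat3 KO liver and 27775.1 in Flox/Flox liver on its brightest probe set, a ratio of -0.062. An almost equally bright Sod1 probe set gave 0.061 and a dim one -0.24, and the sign of the brightest turned under quantile normalization. Sod2, the mitochondrial enzyme, had 13066.3 in L-Lpcat3 KO liver and 13027.3 in Flox/Flox liver, a ratio of 0.0043, whose sign turned under median centring. Its 3 other probe sets gave -0.25, -0.18 and 0.62, the last of them dim at 138.9 in L-Lpcat3 KO liver and 90.3 in Flox/Flox liver and 1.54-fold higher. The probe sets of Sod2 therefore give different signs.

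Among the classical NRF2 targets outside the glutathione genes, Nqo1 stood apart. Nqo1 encodes the quinone reductase that is often taken as the marker transcript of NRF2 activity. It had 374.3 in L-Lpcat3 KO liver and 216.3 in Flox/Flox liver, a log2 ratio of 0.79 or 1.73-fold higher, the highest of all members. Of the 500 genes nearest to it in signal 1.2% had a higher ratio, and the central 90% of these dim genes ran from -0.58 to 0.58. It is read by 1 probe set (1423627_at), also of the unique kind. The other members of the group did not share this size of difference. Hmox1, which breaks down heme, had 274.6 in L-Lpcat3 KO liver and 245.3 in Flox/Flox liver, a ratio of 0.16. Txnrd1, the cytosolic thioredoxin reductase and the brightest of the group, had 3250.7 in L-Lpcat3 KO liver and 3289.8 in Flox/Flox liver, a ratio of -0.017. Both were within 1.2-fold. Srxn1, which repairs overoxidised peroxiredoxins, had 722.9 in L-Lpcat3 KO liver and 748.7 in Flox/Flox liver on its brightest probe set, a ratio of -0.051. Its 3 dimmer probe sets gave 0.25, 0.62 and -0.20, and the one at 0.62 had 154.3 in L-Lpcat3 KO liver and 100.1 in Flox/Flox liver, 1.54-fold higher. Nqo1, Gstt3 and Gstt2 were the 3 members outside the central 90% of their neighbours in signal, which is 9.38% of the measured members, where 10% is expected by construction.

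The antioxidant response element has the core TGACNNNGC, and in a looser form TGAGNNNGC, where N is any base. These cores were searched on both strands of the 300 bases from 250 before to 50 after each RefSeq transcription start (build GRCm38.p6). Of the members, 30 genes with 42 such windows matched by symbol, and Gclc, Gsr, Gsta4, Gstt2, Hmox1 and Prdx6 were not among them. Either core was present in 14 windows of 13 genes, or 33.3% of member windows, beside 27.8% of all 32851 windows. TGACNNNGC alone was in 21.4% of member windows and 12.4% of all windows, and TGAGNNNGC in 19.0% of member windows and 17.6% of all windows. Both cores overlap the AP-1 site TGAGTCA, which reads TGACTCA on the other strand, so a match to either can be that site too. Stretches of 100 bases before the start, or around a match, are given with matches on either strand in capitals. They cover the members with ratios past 1.5-fold and 5 members that hold a core and stayed within 1.2-fold. The 5 were picked from the 13 genes with a core, so these stretches cannot show how cores and ratios go together.
Nqo1 (chr8:107403206-107403305, minus strand): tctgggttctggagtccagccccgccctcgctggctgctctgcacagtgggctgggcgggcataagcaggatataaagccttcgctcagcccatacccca
Gstt3 (chr10:75781415-75781514, minus strand): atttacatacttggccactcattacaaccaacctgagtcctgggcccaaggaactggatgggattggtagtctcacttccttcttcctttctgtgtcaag
Gstp1 (chr19:4037913-4038012, minus strand): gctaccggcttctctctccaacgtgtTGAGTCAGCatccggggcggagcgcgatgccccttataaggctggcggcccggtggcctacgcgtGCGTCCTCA
Gclm (chr3:122245377-122245476, plus strand): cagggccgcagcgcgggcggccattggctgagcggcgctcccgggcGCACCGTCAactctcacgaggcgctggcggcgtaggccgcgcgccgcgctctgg
Gsta3 (chr1:21240418-21240517, plus strand): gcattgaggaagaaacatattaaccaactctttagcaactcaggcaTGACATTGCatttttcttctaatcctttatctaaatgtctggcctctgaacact
Srxn1 (chr2:152105424-152105523, plus strand): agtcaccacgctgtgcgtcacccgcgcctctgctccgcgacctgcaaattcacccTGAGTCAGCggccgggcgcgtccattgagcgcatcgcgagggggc
Txnrd1 (chr10:82859106-82859205, plus strand): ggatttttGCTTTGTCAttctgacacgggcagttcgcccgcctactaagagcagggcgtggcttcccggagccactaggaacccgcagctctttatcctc
In these stretches Nqo1 and Gstt3, the members at least 1.5-fold higher, have no core, and Gstp1 has 2, Srxn1 shows 1 of the 3 in its window, and Gclm, Gsta3 and Txnrd1 have 1. Gstt3 has 2 windows that overlap almost wholly, of which 1 is shown. Txnrd1 has further windows at other starts, which hold no core and are not shown. A match describes the letters only, and elements farther from the start lie outside the windows.

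NRF2 itself and its inhibitor were nearly equal between the pools on their brightest probe sets. Nfe2l2 had 2578.9 in L-Lpcat3 KO liver and 2424.8 in Flox/Flox liver, a log2 ratio of 0.089. A second, dim Nfe2l2 probe set had 128.3 in L-Lpcat3 KO liver and 219.2 in Flox/Flox liver, a ratio of -0.77 or 1.71-fold lower, and this was the single member probe set at least 1.5-fold lower. Keap1 had 1378.4 in L-Lpcat3 KO liver and 1371.2 in Flox/Flox liver, a ratio of 0.0076, with -0.12 on the other probe set. NRF2 is controlled mainly through the stability of its protein, which an array does not measure.

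Over the 54 measured probe sets of the members, 4 were at least 1.5-fold higher, those of Nqo1 and Gstt3 and the dim ones of Sod2 and Srxn1, and 1 was at least 1.5-fold lower. Of the members, 17 had 1 measured probe set and 15 had several. In 7 of these 15 all probe sets had the same sign, and in 8 they did not. The glutathione transferase Gstm1 was of the first kind with 4 probe sets below 0, and Sod2 of the other kind. Neither the calls nor the split of signs was counted over all probe sets of the array. These counts therefore do not set the members apart.

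**Figure D3:**
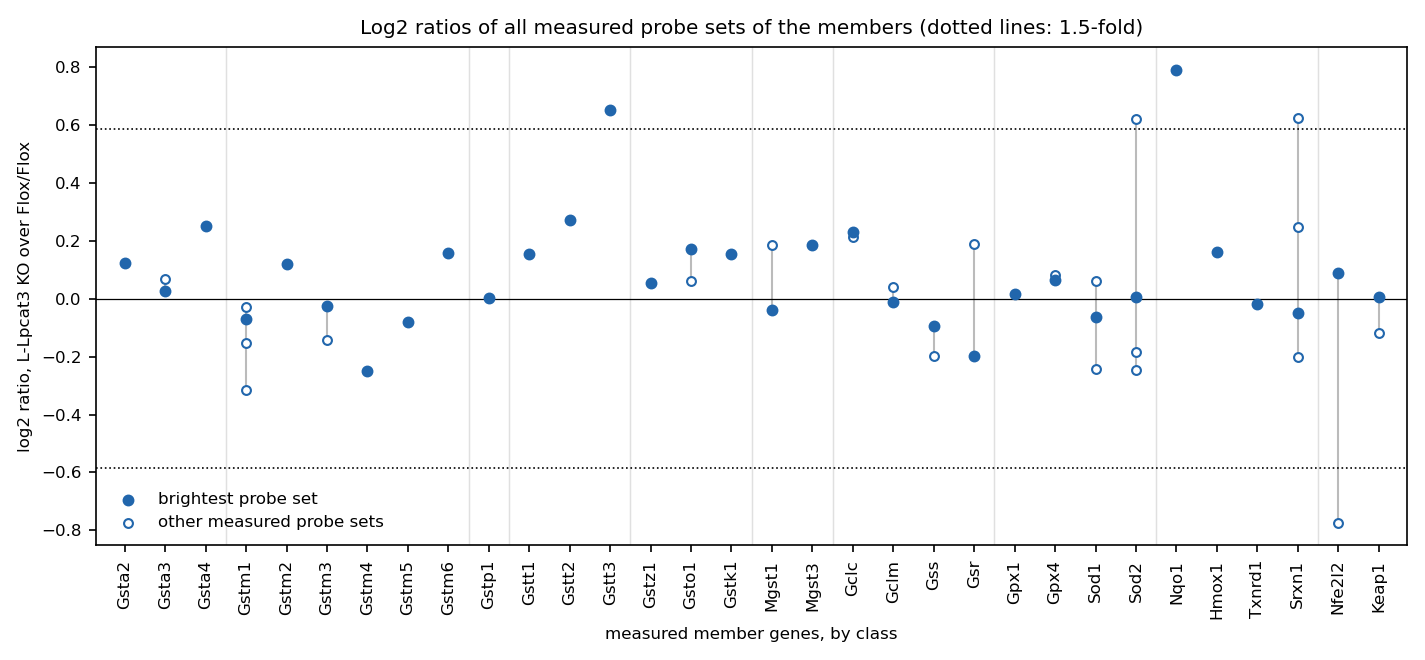
Every measured probe set of the members (54 points), by gene, at its log2 ratio (vertical, L-Lpcat3 KO to Flox/Flox), with the brightest of each gene filled, the others open, and dotted lines at 1.5-fold. Mgst1, Gclm, Gsr, Sod1, Sod2, Srxn1, Nfe2l2 and Keap1 have probe sets on both sides of 0.

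Other genes of the same pathways, set beside the members, lay on both sides of 0. Their counts are to be read beside all measured genes, of which 4.04% were at least 1.5-fold higher and 3.19% lower. Of 30 further NRF2 targets, 24 were measured, 0 were at least 1.5-fold higher and 1 was at least 1.5-fold lower, with 13 above 0 and a median log2 ratio of 0.057. The one lower was Adh7, an alcohol and retinol dehydrogenase, with 201.4 in L-Lpcat3 KO liver and 306.6 in Flox/Flox liver. Its log2 ratio was -0.61, while its other probe set gave -0.10. The brightest were Fth1, ferritin heavy chain, at -0.16 and Txn1, thioredoxin, at -0.061, while a second Txn1 probe set gave -0.65. Abcc3, an exporter of organic anions, was the highest of this list with 7657.7 in L-Lpcat3 KO liver and 5738.2 in Flox/Flox liver, a ratio of 0.42. Of 34 further glutathione and thioredoxin genes 29 were measured, 2 were higher and 0 lower, with a median of 0.045. Txnip, which inhibits thioredoxin, had 2726.1 in L-Lpcat3 KO liver and 1536.0 in Flox/Flox liver, 1.77-fold higher. Glrx3, a glutaredoxin, had 119.0 in L-Lpcat3 KO liver and lay below the floor in Flox/Flox liver, so it was at least 1.56-fold higher. The brightest genes of this list were Slc25a39, the mitochondrial glutathione importer, at 0.046 and Cat, catalase, at -0.11.

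Of 11 partners and regulators of NRF2, 10 were measured, 8 of them were above 0, none was past 1.5-fold, and the median log2 ratio was 0.14. The small Maf genes, partners of NRF2 on DNA and of its competitor BACH1, led this list and were singled out after their values were seen. Maff had 216.5 in L-Lpcat3 KO liver and 145.2 in Flox/Flox liver, a ratio of 0.58, just inside 1.5-fold. Mafk had 337.3 in L-Lpcat3 KO liver and 234.6 in Flox/Flox liver, a ratio of 0.52. Mafg had 1607.5 in L-Lpcat3 KO liver and 1141.4 in Flox/Flox liver, a ratio of 0.49, while its second probe set gave -0.22. The brightest of the list were Bach1 at 0.16, with 0.66 on its other probe set, and Syvn1, a ubiquitin ligase, at -0.31. Drug receptors CAR, PXR and AhR also drive glutathione transferases in mouse liver. Of 14 of their other targets 10 were measured and 2 were at least 1.5-fold higher, with 0 lower and a median of 0.083. Over all measured genes 4.04% were at least 1.5-fold higher and 3.19% lower, and 10 genes are few for such a comparison. Cyp2b10, the usual CAR target, had 285.6 in L-Lpcat3 KO liver and 115.7 in Flox/Flox liver, 2.47-fold higher, but another of its probe sets gave -0.55. Abcb1a, a drug exporter, had 146.7 in L-Lpcat3 KO liver and 80.7 in Flox/Flox liver, 1.82-fold higher. Both Cyp2b10 and Abcb1a are dim, and the Flox/Flox signal of Abcb1a is close to the floor of 76.4. The bright targets Cyp3a11 and Alas1 were at -0.016 and 0.21, and a second Alas1 probe set gave -0.44.

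**Figure D4:**
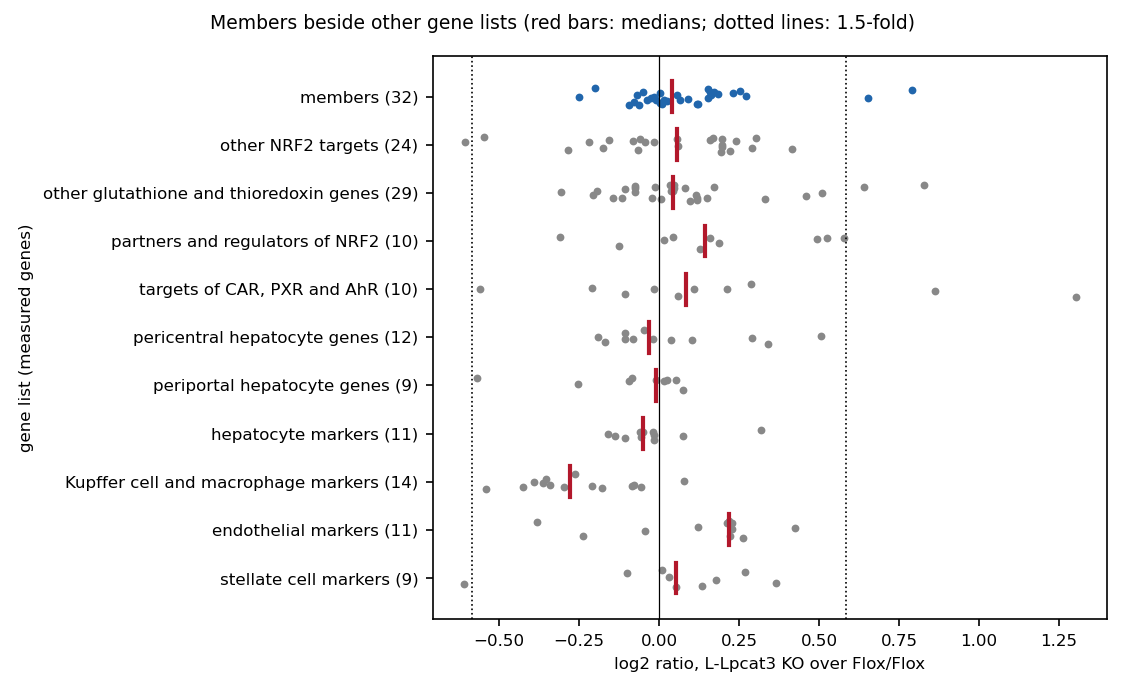
Log2 ratios (horizontal, L-Lpcat3 KO to Flox/Flox) of the measured members, other NRF2, glutathione and drug receptor lists, and zonal and cell type markers (rows, number of measured genes in brackets), 1 point per gene, with red bars at the medians and dotted lines at 1.5-fold. The median of the members is 0.040, and of the lists drawn those farthest from 0 are Kupffer cell and macrophage markers at -0.28 and endothelial markers at 0.22.

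Several transferases and NRF2 targets are expressed unevenly along the liver lobule and by cells other than hepatocytes, so zonal and cell type markers were read on the same arrays. All 12 pericentral genes had a median log2 ratio of -0.032, with Cyp2e1 at -0.018 and Oat at 0.037, and the 9 measured periportal genes of 12 had -0.0082, with Cps1 at -0.0082 and Arg1 at 0.053. None of either list was past 1.5-fold. Kupffer cell and macrophage markers were below 0 in 13 of 14, with a median of -0.28 and summed signals of 21118.1 in L-Lpcat3 KO liver and 22588.9 in Flox/Flox liver; Slc40a1, their brightest, was at 0.079 and Csf1r at -0.078. Endothelial markers were above 0 in 8 of 11, with a median of 0.22 and sums of 10555.8 in L-Lpcat3 KO liver and 9229.7 in Flox/Flox liver. They were led in signal by Clec4g at 0.23 and Fcgr2b at 0.22, whose probe sets ran from -0.12 to 0.51. Below 0 lay Cdh5 at -0.38, Pecam1 at -0.24 and Stab1 at -0.045. Stellate cell markers had a median of 0.054 over 9 of 10, with Dcn at 0.053, Colec11 at 0.0090 and Col3a1 1.53-fold lower. Few bile duct, neutrophil, lymphocyte and erythroid markers were measured (3, 6, 2 and 1), with medians of 0.40, -0.11, -0.081 and 0.23. Most of the bile duct and neutrophil genes, and Ms4a1 of the lymphocyte markers, were below the floor on 1 array. The bile duct median is the ratio of Krt7, below the floor in Flox/Flox liver. The first 3 medians therefore depend on the floor. Sox9 was 2.08-fold lower, with 77.6 in L-Lpcat3 KO liver, close to the floor of 76.4, and -0.44 on its other probe set. Mpo was 1.55-fold lower. Epcam and Csf3r, below the floor in Flox/Flox liver, were at least 1.68-fold and 1.57-fold higher. The part of cell makeup in the ratios of Nqo1, Gstt3 and the other members was not tested.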

How the data were processed

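Liver RNA of 5 mice per genotype was pooled and hybridised to 1 Affymetrix mouse expression array per genotype. The authors deposited MAS5 signal intensity values on a linear scale for 45101 probe sets, per the submitters' processing notes (version not given in the sources used here), and GeneSpring GX is named in the study's methods. The trimmed mean (2% off each end) of each array is 500.0, so the arrays are already scaled to each other. The western diet arrays were not analysed here.

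Probe sets were named from the platform annotation: 34945 list 1 gene, 932 list several and were not attributed to a gene, 9160 have no gene name, and 64 are controls. Signals under 76.4, the median of all signals, were set to that floor. A gene counted as measured where at least 1 of its probe sets lay above the floor on 1 array or both, and took the value of its brightest measured probe set by mean log2 signal. The log2 ratio is L-Lpcat3 KO over Flox/Flox, and no test was possible with 1 array per genotype. As a gauge of scatter, each member was set beside the 500 measured genes nearest in signal. Probe sets were ranked by signal only to choose and name the brightest, which says nothing of relative transcript levels. The precision is limited by the number of arrays.

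All members were accounted for, with every member probe set past 1.5-fold and the brightest member of each class in full. Of each other list, up to 4 genes past 1.5-fold and the 2 brightest were named. The members and lists were chosen with earlier results of these data known. Alternatives were median centring, quantile normalization, loess on mean signal (span 0.4), floors at the 25th and 75th percentile, a pseudocount in place of the floor, the mean of all probe sets or the second brightest, probe sets without shared-sequence suffixes, and a 2-fold threshold. Promoter sequences came from RefSeq (GRCm38.p6). The script was checked on values with planted changes. Python 3.11.15, numpy 2.4.6, pandas 2.3.3, statsmodels 0.14.6 and matplotlib 3.10.9 were used.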

Additional observations from a re-analysis of the deposited data

Results flagged for a closer look

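Probe sets that list more than 1 gene were left out of the gene values, and among them those of the peroxide-removing peroxiredoxin Prdx1, which all list Gm21399 as well, shared a direction. All 5 were lower in L-Lpcat3 KO liver, with log2 ratios of -0.41 to -0.067, and 0 reached 1.5-fold. The brightest had 32046.7 in L-Lpcat3 KO liver and 35042.9 in Flox/Flox liver. The 5 read the same RNA pools, so they are not 5 separate measurements, and the share of each gene in them is unknown. The probe set that lists Gm3776, Gsta2 and Gsta1 had 2751.8 in L-Lpcat3 KO liver and 2839.1 in Flox/Flox liver, a log2 ratio of -0.045. The probe set that lists only Gsta2 gave 0.12, and whether it also binds Gsta1 transcripts was not checked.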

How the results depend on the processing

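With 1 pool and 1 array per genotype, no ratio has an error, and 1.5-fold is a size and not a test. No paired analysis was possible because each genotype is 1 array. Under 3 other scalings (median centring, quantile normalization and loess) the members at least 1.5-fold higher stayed at 2 and those lower at 0, the median log2 ratio of the members ran from 0.033 to 0.073, and 28 of 32 members kept their sign, the exceptions being Gstp1, Mgst1, Sod1 and Sod2. When the floor was raised to the 75th percentile (386.7), 1 member was at least 1.5-fold higher, since Nqo1 lies below that floor. With the second brightest probe set of the 15 members that have one, 0 were higher and 1 was lower, Nfe2l2, whose log2 ratio reversed to -0.773; Nqo1 and Gstt3 have no second probe set. With 2-fold in place of 1.5-fold, 0 members were higher. Over all alternatives, 243 of 263 ratios of single members moved by at most 0.1 on the log2 scale and 20 by more, among them Nqo1, at 0.62 with a pseudocount. The sign turned in 21 of the 263, of which 8 came with the second brightest probe set (Mgst1, Gclm, Gsr, Srxn1, Sod1, Sod2, Nfe2l2 and Keap1), 5 with the mean of probe sets and 4 without shared-sequence or transcript-family probe sets. For all genes, a floor at the 25th percentile gave 1801 higher and 1403 lower, and one at the 75th gave 57 and 59, against 488 and 386 as reported. Dim genes such as Nqo1 are limited by signal near the floor.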
